A study of Danio rerio with 15 samples.

Results

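The 7 zebrafish brain tumor libraries of this study, numbered 5, 6, 7, 8, 12, 13 and 14, were compared with each other. They were chosen by their tissue label and make up 7 of 15 libraries in all, the other 8 being normal brain (1, 2, 3, 4, 9, 10, 11 and 15). Per the labels the tumors were driven by NRAS and termed CNS-PNET, that is, primitive neuroectodermal tumors of the brain, and the normal samples were whole brain. The labels name neither the fish's age, strain and genotype nor the promoter driving NRAS, nor whether each tumor came from its own fish, so every p-value below measures the spread between these samples, which may be technical. No tumor was placed in a subgroup. Values in a series are given in the order of tumors 5, 6, 7, 8, 12, 13 and 14, as normalised read counts (CPM, counts scaled to the library's effective size).

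NRAS is a small GTPase that, when bound to GTP, drives the RAF, MEK and ERK kinases and with them proliferation. SOX10 and OLIG2 are transcription factors of the oligodendrocyte lineage, which supplies myelin to axons, and primitive neuroectodermal tumors are embryonal tumors made mostly of undifferentiated cells. A dissected tumor also holds the brain tissue it grew into, vessels, blood and immune cells, so a transcript in such bulk RNA is a sum over cell types, and fewer cells of a type cannot be told apart from less RNA per cell.

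The libraries held 13605588 (tumor 6) to 21347976 counts (tumor 14). The limit set by a count of 0, which is 3 counts, lay between 0.13 and 0.218 CPM, which covers counting error only. Tumor 13 stood apart before any gene was tested. On the first principal component of log2 CPM, which held 46.7% of the variance, it lay at 163 while the others lay between -65.5 and 28.3. Its median correlation with the other tumors, taken across genes, which are not independent replicates, was 0.868, where the other 6 had medians of 0.906 to 0.923. It also had the fewest genes with a count, 20458, where the others had 21472 to 22185. The fits on SNAP25 are therefore given with and without it.

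Tumor libraries lay farther from one another than normal brain libraries. The root mean square log2 difference of a library from the mean of the other libraries of its group was 0.859 ± 0.252 (SD, n = 7) in brain tumor and 0.424 ± 0.0866 (SD, n = 8) in normal brain. It ran from 0.689 in tumor 6 over 0.903 in tumor 8 to 1.41 in tumor 13, and from 0.348 to 0.562 in normal brain, so the groups did not overlap. The difference of 0.435 had p = 0.000155 in a two-sided exact permutation test over 6435 assignments of the finished distances, the smallest p this design allows. The distances were not computed anew for each assignment. Those of a group share libraries and are not independent, so the p is approximate. With tumor 13 left out the difference was 0.324, with an exact permutation p of 0.000666, the smallest p of 6 against 8 libraries being 0.000333. Of 11233 genes averaging 10 CPM or more over the tumors, 95.4% had a larger SD of log2 CPM in the tumors than in normal brain, with a median SD of 0.387 against 0.133.

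**Figure D1:**
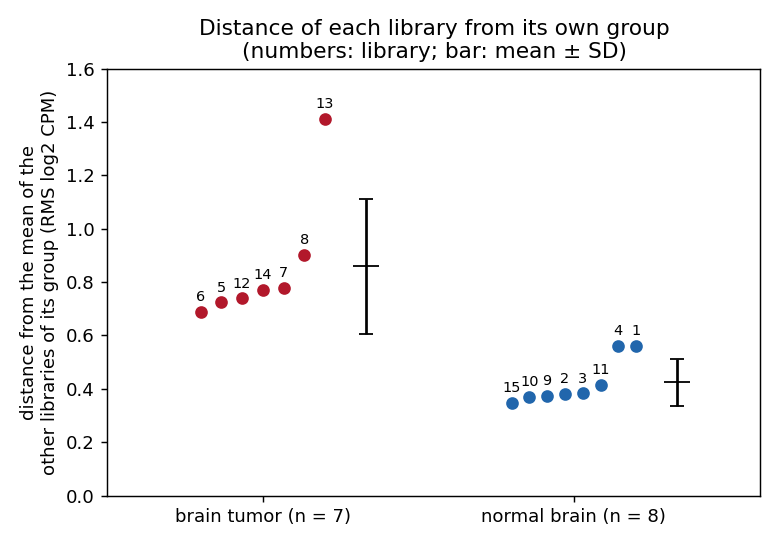
Distance of each library from the mean of the other libraries of its group, as root mean square difference in log2 CPM over 19265 genes, with library numbers beside the points and the mean ± SD of each group to the right. The 7 tumors lie between 0.689 and 1.41 with tumor 13 highest, and the 8 normal brains between 0.348 and 0.562.

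NRAS, SOX10 and OLIG2 ranged 2.31- to 2.62-fold over the tumors, where the median gene ranged 2.14-fold. NRAS (ENSDARG00000038225) stood at 27.5, 22.7, 19.7, 26.4, 27.8, 45.7 and 29.4 CPM, a range of 2.31-fold with tumor 13 highest, and at 9.15 ± 1.2 CPM in normal brain (SD, n = 8). No source here says whether reads of an introduced NRAS count toward this gene. SOX10 (ENSDARG00000077467) stood at 1750, 1087, 1271, 668, 1477, 1356 and 1282 CPM, so that tumor 8 was lowest and tumor 5 highest, 2.62-fold apart. Its mean in normal brain, scaled among the normal libraries alone like all normal brain levels given here, was 33.6 ± 3.3 CPM (SD, n = 8). OLIG2 ranged from 268 (tumor 12) to 687 CPM (tumor 7), with 44.0 ± 6.38 CPM in normal brain. All 7 tumors thus lay above the normal mean for these 3 genes.

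SNAP25 (ENSDARG00000020609), a SNARE protein needed to release synaptic vesicles, stood at 93.1, 433, 279, 1003, 363, 7.94 and 395 CPM. Tumor 8 was highest and tumor 13 lowest, 124-fold apart, and every tumor lay under the normal brain mean of 4249 ± 213 CPM (SD, n = 8). Its second copy (ENSDARG00000058117) showed the same order at the ends, with 141 CPM in tumor 8 and 1.53 CPM in tumor 13. Without tumor 13 the first copy still ranged from 93.1 CPM in tumor 5 to 1003 CPM in tumor 8.

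**Figure D2:**
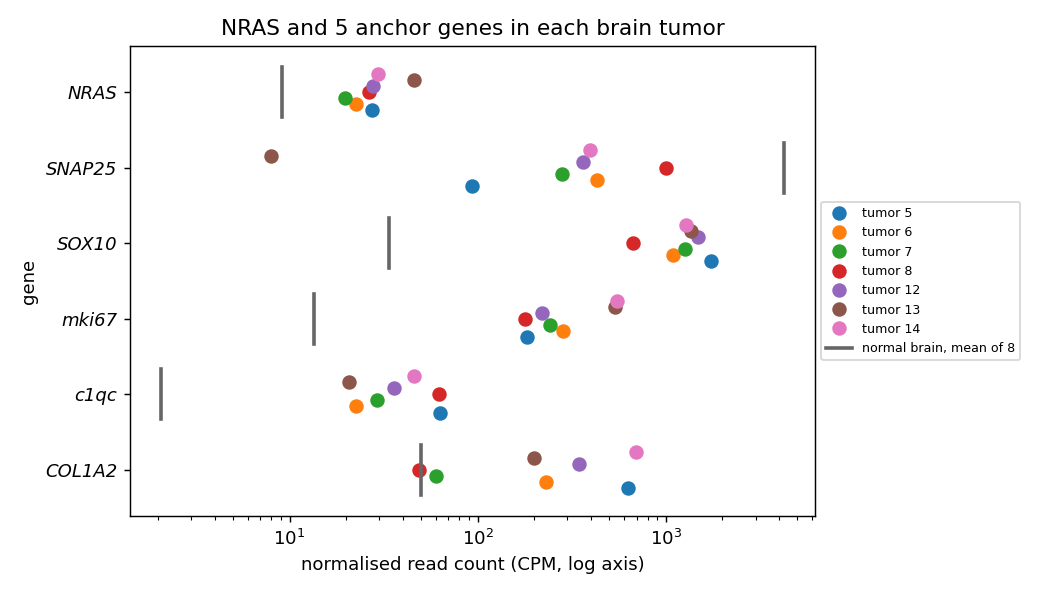
Normalised read counts (CPM, log axis) of NRAS and of 5 anchor genes, one for each of the neuronal, oligodendroglial, cell cycle, immune and stromal classes, with 1 point per brain tumor and a grey line at the mean of the 8 normal brains. SNAP25 spans 7.94 to 1003 CPM and COL1A2 49.0 to 693 CPM, while SOX10 spans 668 to 1750 CPM and NRAS 19.7 to 45.7 CPM.

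Which genes vary together was asked by fitting the counts of every gene on the log2 CPM of 1 anchor gene across the 7 tumors, so that a slope of 1 means that a gene doubles whenever the anchor doubles. With SNAP25 as the anchor, 1467 of 19900 genes (7.37%) rose and 253 (1.27%) fell in edgeR's quasi-likelihood test at a Benjamini-Hochberg adjusted p below 0.05. Tumor 13 carried most of these calls: without it 13 genes rose and 0 fell. Of 20013 genes in that fit 2242 had an unadjusted p below 0.05, 1749 rising and 493 falling. The list counts without tumor 13 given below stand against these.

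Of the 1467 genes that rose, 1447 were lowest in tumor 13 and 20 in tumor 5. Over the 11233 genes at a mean of 10 CPM or more, tumor 13 was lowest in 2363 and tumor 5 in 866. Tumor 13 weighs most in the fit, so the count of 1447 follows largely from how the genes were called. SV2B, a synaptic vesicle glycoprotein, had 3.66, 19.8, 12.6, 61.7, 19.6, 0.291 and 18.5 CPM and a slope of 1.11 ± 0.06 (SE, adjusted p = 0.000358, edgeR). SLC32A1, the vesicular GABA transporter, had 7.96, 34.6, 21.5, 69.6, 25.9, 1.09 and 25.7 CPM and a slope of 0.86 ± 0.05, and the same adjusted p. Both were highest in tumor 8 and lowest in tumor 13, with tumor 5 next above tumor 13. Ranks by p leave out genes without a proper symbol, that is, with a clone or predicted name or none. The next by p were vsnl1b, a neuronal calcium sensor, and atp2b2, a calcium pump of the plasma membrane, with slopes of 0.89 and 0.91. EEF1A1 (ENSDARG00000069951), a copy of elongation factor 1 alpha, and GRIN1 (ENSDARG00000025728), a subunit of the NMDA receptor, followed with slopes of 1.04 and 0.90. Left without tumor 13, SV2B kept a slope of 1.18 ± 0.09 (edgeR adjusted p = 0.0263), SLC32A1 0.91 ± 0.09 (0.0327), vsnl1b 0.97 ± 0.09 (0.0327), atp2b2 1.07 ± 0.08 (0.0263) and GRIN1 0.96 ± 0.10 (0.0373), while EEF1A1 had 1.01 ± 0.11 (0.0551).

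Gene lists of neurons followed this gradient. Of 53 tested pan-neuronal genes other than SNAP25 itself, 32 rose and 0 fell, with a median slope of 0.56 against 0.02 over all genes. Over all 19900 genes 7.37% rose and 1.27% fell. Of 43 genes of the glutamatergic synapse 29 rose, of 32 of the GABAergic synapse 12 rose, of 32 neuropeptide genes 12 rose and of 28 cerebellar genes 17 rose, with none falling in these 4 lists. Without tumor 13 the calls were 1 glutamatergic, 1 GABAergic, 0 neuropeptide and 0 cerebellar gene by edgeR, while 24, 15, 12 and 18 rose and 0, 0, 3 and 0 fell at an unadjusted p below 0.05. Mean log2 CPM of the pan-neuronal list was 3.96, 5.07, 4.6, 5.62, 4.91, 2.46 and 4.92, lowest in tumor 13 and highest in tumor 8. In the fit without tumor 13 the median slope of the pan-neuronal list was 0.61, and 34 of 53 members had a positive slope at an unadjusted p below 0.05, of which 3 passed the adjusted threshold.

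Some neuronal genes were at or near the limit set by 3 counts in tumor 13. GRIA3 (ENSDARG00000037498), an AMPA receptor subunit, had 6.95, 28.3, 10.7, 29.6, 17.9, 0.218 and 14.4 CPM, and STMN2 (ENSDARG00000070537), a microtubule protein of growing axons, had 21.9, 43.8, 32.9, 95.2, 50.4, 0.583 and 38.9 CPM. GAD2, which makes GABA, ran from 3.57 CPM in tumor 13 to 177 CPM in tumor 8 and had 1330 ± 83.4 CPM in normal brain. NEUROD1, a transcription factor of granule neurons, ran from 1.17 (tumor 13) to 104 CPM (tumor 8). Not all list members moved: mapta, the microtubule protein tau, had 175, 185, 121, 133, 145, 160 and 154 CPM, a range of 1.54-fold.

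All 253 genes that fell as SNAP25 rose were highest in tumor 13. Since tumor 13 lies far below the rest in SNAP25, it weighs most in the fit, and this count follows largely from how the genes were called. It was highest in 4500 of the 11233 genes at a mean of 10 CPM or more. Of the 253 genes, plcxd1 had the smallest p among those with a proper symbol. It had 36.6, 15.7, 21.8, 17.6, 22.7, 143 and 16.6 CPM (slope -0.47 ± 0.04 SE, adjusted p = 0.00149, edgeR). mybphb, a myosin binding protein, had 58.8, 11.8, 23.9, 9.95, 14.1, 150 and 23.2 CPM (slope -0.59 ± 0.06 SE, adjusted p = 0.00186, edgeR). RASGRP3, an exchange factor that loads Ras with GTP, had 19.8, 8.42, 20.2, 7.23, 8.97, 77.1 and 8.99 CPM (slope -0.50 ± 0.06, adjusted p = 0.00245). UGT1A1, a glucuronosyltransferase, was at 78.1 CPM in tumor 13 and at 0.622 to 3.04 CPM elsewhere. Without tumor 13 the slope of plcxd1 was -0.33 (edgeR adjusted p = 0.314), and those of mybphb, RASGRP3 and UGT1A1 were -0.75, -0.48 and -0.21 with adjusted p-values of 0.0949, 0.332 and 0.897, so none of these 4 passed.

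Tumor 13 was highest in some glial genes and lowest in others. GFAP, the intermediate filament of astroglia, had 340, 390, 1429, 216, 464, 2399 and 251 CPM, with tumors 13 and 7 highest and tumor 8 lowest. SLC4A4, a bicarbonate transporter of astroglia, had 17.7, 148, 55.2, 195, 126, 2.19 and 136 CPM, and ptgdsb.2, a prostaglandin D synthase, had 13.3, 84.9, 44.6, 122, 86.2, 0.874 and 120 CPM, both lowest in tumor 13. Of 38 tested astroglial list genes 13 rose with SNAP25 and 0 fell, where 7.37% of all 19900 genes rose and 1.27% fell. Without tumor 13 0 of 39 list genes passed by edgeR, with 12 rising at an unadjusted p below 0.05. epd, which encodes ependymin, an extracellular glycoprotein of the fish brain, ran from 15 CPM in tumor 13 to 2693 CPM in tumor 8.

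The oligodendrocyte precursor genes were uneven. olig1 had 3.22, 22.4, 109, 10, 29.4, 0.510 and 69.5 CPM, a 174-fold range, while SOX6, which holds precursors back from maturing, had 379, 268, 285, 239, 256, 263 and 249 CPM, a range of 1.58-fold. bcan, the proteoglycan brevican, stood at 1375 CPM in tumor 7 and at 13.2 CPM in tumor 13, with 201 to 405 CPM in the rest. Of 36 precursor genes tested 4 rose with SNAP25 and of 31 myelin genes 2 rose, with 0 falling in either list, which for myelin is near the background of 7.37%. Without tumor 13 0 genes of either list passed by edgeR, while 5 precursor and 3 myelin genes rose and 3 and 5 fell at an unadjusted p below 0.05. Of all 20013 genes in that fit 1749 rose and 493 fell at the same limit. The myelin list mean varied little, with an SD of 0.29 in log2 CPM, but its members varied more. The 26 members at 10 CPM or more had a median SD of 0.79, against 0.387 over all genes at that level. Within the list cldnk, a claudin of myelin, ran from 149 (tumor 8) to 1329 CPM (tumor 13). plp1b, a proteolipid protein of myelin, ran from 1867 (tumor 8) to 11510 CPM (tumor 7).

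Of 46 progenitor genes tested 7 rose with SNAP25 and 1 fell, where 7.37% of all 19900 genes rose and 1.27% fell. Without tumor 13 the list counts were 0 and 0 by edgeR, with 9 rising and 1 falling at an unadjusted p below 0.05. Of the 32 progenitor genes at 10 CPM or more 8 ranged at least 8-fold, against 922 of all 11233 genes (8.21%). HMGB3 (ENSDARG00000006408), a chromatin protein of dividing progenitors, had 140, 151, 144, 119, 140, 128 and 113 CPM, a 1.33-fold range. LFNG, which modifies Notch, had 16.1, 118, 11.7, 117, 252, 12.6 and 98.5 CPM, and HES6, a bHLH regulator of neurogenesis, had 28.9, 1.6, 29.7, 3.90, 48.7, 7.28 and 6.25 CPM. These 2 genes separated the tumors in different ways, since tumors 6 and 8 were high for LFNG and low for HES6.

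Each of the 40 G2 and M phase genes was highest in tumor 13 or 14, and in 30 of them both lay above the other 5 tumors. Among the 11233 genes at a mean of 10 CPM or more, tumor 13 was highest in 4500 and tumor 14 in 990. mki67, which encodes the Ki-67 protein of cycling cells, stood at 183, 284, 242, 179, 219, 538 and 554 CPM, against 13.5 ± 3.35 CPM in normal brain (SD, n = 8). CDK1, the mitotic kinase, had 106, 99.0, 153, 129, 165, 412 and 283 CPM, and CCNA2, cyclin A, had 45.6, 55.9, 98.2, 68.5, 105, 222 and 158 CPM. In these 3 genes tumors 13 and 14 lay above the other 5. plk1, polo-like kinase, was highest in tumor 14 (109 CPM), but tumor 13 (72.4 CPM) lay below tumors 8 (79.2 CPM) and 12 (82.0 CPM). The mean log2 CPM of the 40 G2 and M phase genes was 5.46, 5.47, 5.68, 5.64, 5.74, 6.54 and 6.46, and the lead of tumor 13 over tumor 14 turned with upper-quartile scaling or with library size alone. Of 39 such genes at 10 CPM or more, 0 ranged 8-fold, against 922 of all 11233 genes (8.21%). With mki67 as the anchor 0 of 19136 genes (0%) passed the threshold in either direction by edgeR, with 791 at an unadjusted p below 0.05, and DESeq2 called 16 rising and 6 falling genes.

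S phase genes did not follow the mitotic ones in all tumors. DNMT1, the maintenance DNA methyltransferase, had 196, 246, 115, 79.4, 102, 189 and 230 CPM, and chaf1a, a histone chaperone of replication, had 150, 171, 50.4, 131, 123, 190 and 175 CPM. Tumor 7 was lowest in chaf1a and in the list mean (5.27, against 5.4 to 6.04 in the others). Of 54 genes of ribosome synthesis 40 were highest in tumor 13, as were 4500 of the 11233 genes at a mean of 10 CPM or more. FBL, the nucleolar methyltransferase fibrillarin, had 183, 146, 175, 102, 124, 255 and 81.6 CPM. IMP4, a nucleolar protein of the same list, was lowest in tumor 13 (18.3 CPM against 19.8 to 25.9 CPM). The list mean of tumor 13 was 6.53 against 5.73 to 6.2 in the others, and with library size alone 6.26 against 6.23 in tumor 6.

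The 39 Ras and MAPK target genes had a list mean between 4.74 and 5.06 (SD 0.13 in log2 CPM), and the tumors at its ends depended on the scaling. ETV4, a transcription factor induced by ERK, had 323, 221, 385, 168, 139, 646 and 111 CPM, and ETV1 of the same family had 155, 118, 241, 84.8, 99.9, 562 and 82.1 CPM, both highest in tumor 13. ETV1 fell as SNAP25 rose (slope -0.39 ± 0.07 SE, edgeR adjusted p = 0.0153), a call lost without tumor 13, where 0 genes fell, and ETV4 did not pass (-0.30 ± 0.08, 0.0591).

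Interferon response genes were highest in tumors 7 and 14. isg15, a ubiquitin-like protein induced by interferon, had 247, 257, 684, 204, 231, 71.4 and 429 CPM, and mxb, a Mx GTPase, had 7.58, 22.7, 57.1, 13.3, 13.8, 2.19 and 61.1 CPM, with tumor 13 lowest in both. The list of 54 interferon and antigen presentation genes had means of 4.53, 4.51, 5.46, 4.86, 4.56, 4.50 and 5.30, with tumor 7 highest except under library size alone, where tumor 14 was. An antigen presentation gene of the same list had another pattern: mhc1uba, an MHC class I gene, had 282, 21.2, 828, 535, 16.5, 16.7 and 24.3 CPM, high in tumors 5, 7 and 8 and low in the other 4. MHC genes differ between fish lines, so reads may count toward another copy.

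Of 42 macrophage genes at 10 CPM or more, 3 ranged at least 8-fold, near the share over all genes (922 of 11233, 8.21%). c1qc, a complement subunit made by macrophages and microglia, had 63.1, 22.5, 29.0, 62.0, 35.9, 20.8 and 46.0 CPM, against 2.08 ± 0.541 CPM in normal brain (SD, n = 8), and its partner c1qb had 39.2, 15.9, 26.9, 47.8, 29.2, 15.4 and 35.0 CPM. Tumors 6 and 13 were lowest in both. timd4, a receptor for dying cells, had 150, 249, 242, 135, 28.7, 241 and 22.9 CPM, while slco2b1 had 67.8, 76.4, 170, 27.4, 179, 24.9 and 270 CPM, so tumors 12 and 14 were low for the first and high for the second. With c1qc as the anchor 0 of 19136 genes (0%) passed in either direction by edgeR, with 926 at an unadjusted p below 0.05, and DESeq2 called 14 rising and 22 falling.

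NK-lysin genes were highest in tumor 8. nkl.2, an NK-lysin, an antimicrobial peptide of cytotoxic lymphocytes, had 22.8, 7.59, 2.23, 1582, 150, 35.0 and 47.0 CPM, and 0.464 ± 0.312 CPM in normal brain (SD, n = 8). nkl.4 of the same family was at 62.4 CPM in tumor 8 and at 0.348 to 3.68 CPM in the others, and the chemokine ccl34b.8 at 67.9 CPM against 1.53 to 4.39 CPM. The summed level of the 57 lymphocyte genes was 2380 CPM in tumor 8, of which nkl.2 made up 1582 CPM, 234 to 624 CPM in the others and 540 to 624 CPM in the normal brains. The NK-lysin genes are a family of similar copies, so the split of reads between them is uncertain.

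COL1A2 (ENSDARG00000020007), the alpha 2 chain of type I collagen, stood at 630, 231, 60.1, 49.0, 346, 200 and 693 CPM, high in tumors 5 and 14, low in tumors 7 and 8, and at 49.8 ± 72.9 CPM in normal brain. With it as the anchor 5 of 19136 genes (0.0261%) rose and 0 (0%) fell by edgeR, with 781 at an unadjusted p below 0.05, and DESeq2 called 175 rising and 7 falling. The 5 were col1a1a (slope 1.07 ± 0.08 SE, adjusted p = 0.00444) and COL1A1 (1.18 ± 0.12, 0.0263), which encode the alpha 1 chain, col18a1b (1.42 ± 0.14, 0.0245), a basement membrane collagen, mb (1.94 ± 0.21, 0.041), the oxygen store myoglobin, and si:dkey-31n5.4. mb had 32.1, 16.2, 0.540, 0.396, 25.7, 13.3 and 100 CPM. Without tumor 7, 8 or 14 the number was 0, without tumor 5, 6 or 12 it was 2, 1 and 1, and without tumor 13 it was 8.

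Other matrix genes differed in how they followed COL1A2. POSTN (ENSDARG00000043806), the matrix protein periostin, had 16.2, 170, 44.8, 21.4, 716, 148 and 642 CPM, high in tumors 12 and 14 and low in tumor 5. COL10A1 (ENSDARG00000054753), a collagen of bone and cartilage, had 141, 49.1, 16.0, 0.791, 133, 0.655 and 193 CPM. Of 69 tested matrix genes 2 rose with COL1A2, against 5 of all 19136 genes, with a median slope of 0.39 against 0 over all genes. zeb1a of the same list ranged only 1.28-fold.

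The summed level of the 45 muscle genes was 2190, 2410, 205, 257, 1970, 337 and 4820 CPM, and 325 to 1150 CPM in the normal brains. Of these genes 42, 41, 21, 25, 41, 30 and 37 reached 1 CPM, and 1, 1, 5, 4, 2, 1 and 1 had no count. ckma, muscle creatine kinase, had 238, 318, 4.12, 17.3, 289, 10.9 and 624 CPM, and atp2a1l, a calcium pump of muscle, had 195, 180, 2.36, 10, 197, 3.79 and 537 CPM. Both were high in tumors 5, 6, 12 and 14 and low in 7, 8 and 13, a pattern also shown by GAPDH (ENSDARG00000043457, 163, 195, 4.52, 6.89, 172, 9.39 and 147 CPM). The median slope of 42 tested muscle genes on COL1A2 was 1.19 against 0 over all genes, and 1 passed, against 5 of all 19136 genes. The part of muscle tissue in the COL1A2 result was not tested.

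Genes of other tissues marked single tumors. In tumor 12 the epithelial keratin krt17 stood at 63.0 CPM against 0.170 to 3.61 CPM in the others, epcam, an epithelial adhesion molecule, also at 63.0 CPM against 0.146 to 6.38 CPM, and mslna, a mesothelin, at 63.1 CPM against 0 to 6.25 CPM. The summed level of the 44 skin genes was 3290 CPM there, 661 to 1910 CPM in the others and 354 to 5780 CPM in the normal brains. In tumor 6, 33 of 51 photoreceptor genes reached 1 CPM, and 9 to 16 did in the others. Their summed level differed less, at 691 CPM in tumor 6, 422 to 656 CPM in the others and 424 to 1140 CPM in the normal brains. Pituitary hormone genes marked tumors 5, 6 and 12: CGA, the alpha subunit of glycoprotein hormones, had 40.9, 24.9, 0.270, 0, 41.7, 0 and 0.0870 CPM, and gh1, growth hormone, had 33.8, 3.69, 0, 0, 96.2, 0.364 and 0.347 CPM.

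Genes that mark regions of the embryonic brain had some of the widest ranges. SIX6, a homeobox factor of the eye field and hypothalamus, had 180, 163, 222, 1.13, 2.02, 650 and 1.69 CPM, against 3.91 ± 1.28 CPM in normal brain (SD, n = 8). VAX1, a homeobox factor of the ventral forebrain and optic stalk, had 217, 38.5, 55.8, 0.113, 2.12, 120 and 0.347 CPM, and VAX2 of the same family 8.52, 0.905, 14.2, 0, 0.101, 7.86 and 0 CPM. SIX6 and VAX1 were high in tumors 5, 6, 7 and 13 and low in 8, 12 and 14, with no tumor between. The 941-fold range of VAX1 and 521-fold range of SIX6 gave SDs of log2 CPM of 4.01 and 3.93. These lay below only the 4.11 of CGA among genes with a proper symbol at 10 CPM or more. The forebrain list followed these genes only in part. Of its 21 genes 11, 14, 10, 8, 13, 3 and 5 reached 1 CPM, fewest in tumor 13. Its mean log2 CPM was 0.3 or more in tumors 5, 6 and 7 and 0.27 or less in 8, 12 and 14. Tumor 13, high in SIX6 and VAX1, had the lowest mean (-1.06). The summed level of the list was 426, 239, 307, 77.2, 29, 780 and 99.3 CPM, against 152 to 200 CPM in the normal brains. This sum split the tumors as SIX6 and VAX1 did, but a sum is led by its most abundant genes.

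The HOX genes, which pattern the hindbrain and spinal cord, were highest where SIX6 was low. Of 27 HOX genes in the table, 1, 6, 3, 17, 13, 0 and 20 reached 1 CPM, and their summed level was 8.08, 39.0, 10.4, 132, 91.6, 0.801 and 159 CPM, against 11.7 to 191 CPM in the normal brains. HOXA3 was at 56.1 CPM in tumor 8 and 15.2 CPM in tumor 14, HOXB3 at 26.2 CPM and 14.3 CPM. HOXB7 had 5.62, 17.5, 0.135, 1.3, 48.0, 0.218 and 46.7 CPM, so it was high in tumors 12 and 14 and not in tumor 8. sim1b, a factor of hypothalamic neurons, was at 45.8 CPM in tumor 8 and 88.8 CPM in tumor 14 and at 0.0730 to 1.32 CPM in the other 5. TFAP2B and FOXD3, factors of the neural crest, were highest in tumors 12 (158 CPM) and 14 (335 CPM) respectively. Of 26 midbrain genes 4, 11, 10, 17, 14, 1 and 13 reached 1 CPM, most in tumor 8 and fewest in tumor 13. The HOX, forebrain and midbrain lists were drawn up after the values were seen and are described only.

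**Figure D3:**
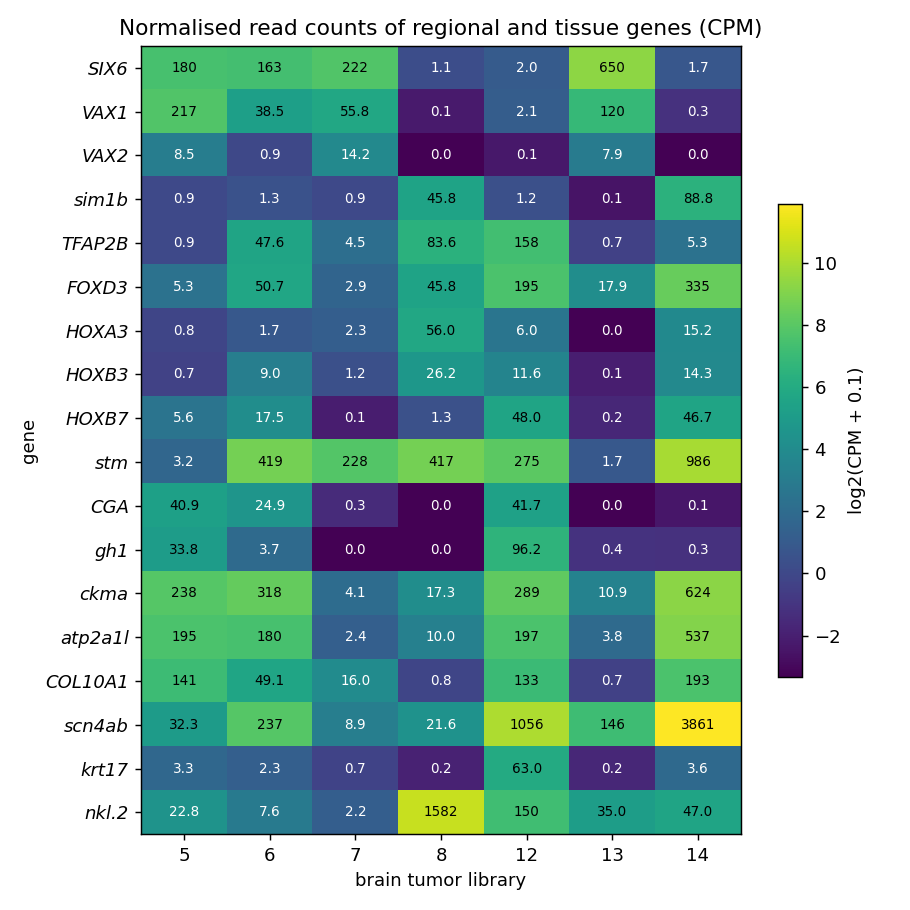
Normalised read counts (CPM, printed in each cell, colour on a log2 scale) of genes of brain regions, other tissues and lymphocytes in the 7 tumors. SIX6 and VAX1 are high in tumors 5, 6, 7 and 13 and low in 8, 12 and 14, where HOXA3 and HOXB3 are highest in tumor 8, and nkl.2 reaches 1582 CPM in tumor 8.

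Lipid genes varied among the metabolic lists. SQLE, squalene epoxidase of cholesterol synthesis, had 33.5, 37.9, 147, 2.71, 3.13, 65.7 and 7.51 CPM, a 52.1-fold range, and LSS, lanosterol synthase, had 33.1, 17.6, 57.0, 4.52, 4.39, 23.6 and 8.99 CPM. Both were highest in tumor 7 and low in tumors 8, 12 and 14. The list mean was 4.57, 4.32, 5.36, 2.99, 3.37, 4.48 and 3.81. At 10 CPM or more, 9 of 22 list genes ranged at least 8-fold, against 922 of all 11233 genes (8.21%). Oxidative phosphorylation genes were even, with a list SD of 0.08. At 10 CPM or more, 20 of 69 stayed within 1.5-fold, against 869 of all 11233 genes (7.74%).

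**Figure D4:**
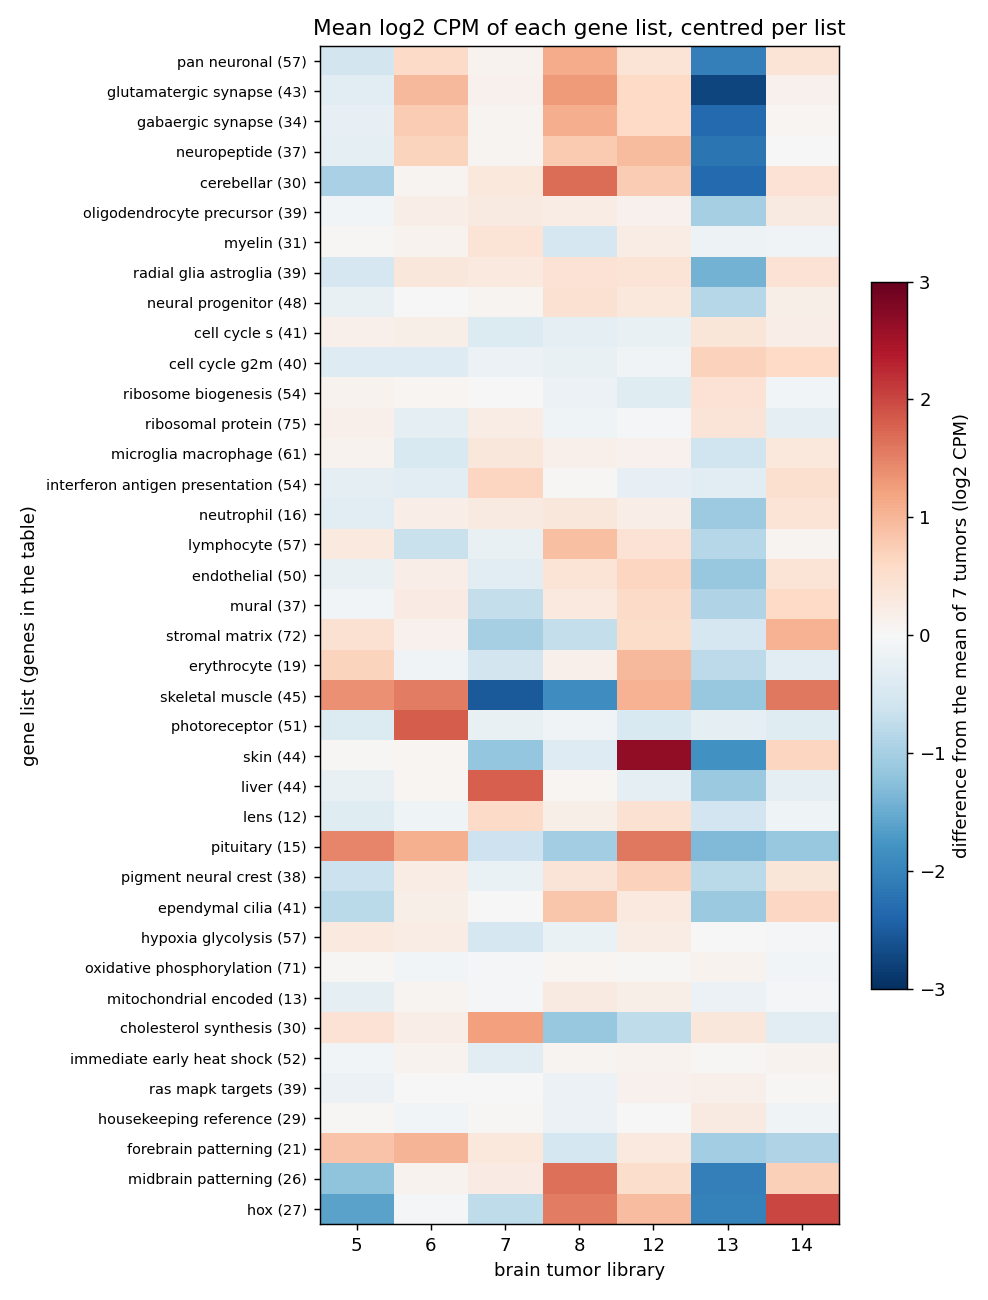
Mean log2 CPM of gene lists in each tumor, centred on the mean of the 7 tumors, with the number of genes in parentheses and red above and blue below that mean. Neuronal lists are lowest in tumor 13 (pan-neuronal mean 2.46) and highest in tumor 8 (5.62), muscle is lowest in tumor 7, and oxidative phosphorylation has an SD of 0.08.

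By the authors' FPKM, which corrects for gene length, 5 mitochondrial genes stood among the 15 with the highest means: MT-CO1 at 6068 ± 973 FPKM (SD, n = 7), MT-CO2 at 5900 ± 713, MT-CO3 at 4933 ± 1080, MT-ATP6 at 3224 ± 1040 and mt-atp8 at 2912 ± 857. The entry of highest mean FPKM, ENSDARG00000098154, has no symbol and had 7656 ± 2420 FPKM. It averaged only 663 CPM, where MT-CO1 averaged 9406 and actb2 8400 CPM, so its rank rests on the length correction. ENSDARG00000081369, also without a symbol, likewise had 4217 FPKM at 298 CPM. Like actb2, ENSDARG00000098154 was highest in tumor 13 (1295 CPM) and lowest in tumor 14 (452 CPM). Whether it shares reads with another gene was not tested. The cytoskeletal genes actb2 (2856 to 6176 FPKM) and tmsb4x (2485 to 4224), the ribosomal genes RPLP0 (1916 to 3568) and rpl32, and the elongation factor eef1a1l1 (2146 to 3350) were also among the 15. plp1b varied most in this set, 6.17-fold in CPM, and MT-CO1 least, 1.5-fold.

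Some genes were nearly constant. Of 11233 genes at a mean of 10 CPM or more, 869 (7.74%) stayed within 1.5-fold over the 7 tumors, and the median gene ranged 2.14-fold. The steadiest with a proper symbol and a mean of at least 50 CPM was POLQ, a DNA polymerase of break repair. It had 81.1, 76.4, 84.7, 78.8, 78.7, 84.8 and 82.4 CPM. Next came ERBIN, a scaffold protein that binds receptors of the ErbB family (57.3 to 65.9 CPM), the phosphatase ptp4a3a (59.5 to 70.6), the RNA export factor nxf1b (118 to 139) and the splicing proteins rbmx (118 to 140) and puf60a (89.1 to 105). POLQ had 78.4 ± 6.35 CPM in normal brain (SD, n = 8). CNN3, a calponin, was among the 15 steadiest with a proper symbol. It had 53.9 CPM on average in the tumors and 11.5 ± 1.56 CPM in normal brain.

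At the other end 922 genes (8.21%) ranged at least 8-fold. Tumor 13 was lowest in 563 of them and tumor 8 highest in 327. Over all 11233 genes tumor 13 was lowest in 2363 and tumor 8 highest in 1439. Without tumor 13, 494 of 11450 genes ranged at least 8-fold, and 2457 stayed within 1.5-fold. Clustered by their correlation over the tumors into 8 clusters, 561 of the 922 genes formed 1 cluster, with a mean z-score of -1.81 in tumor 13 and 0.66 in tumor 8. Of the list genes that ranged 8-fold it held 28 of 29 pan-neuronal, 14 of 14 glutamatergic, 11 of 12 cerebellar and 10 of 13 astroglial genes. It also held 6 of 6 precursor, 6 of 8 progenitor, 5 of 7 endothelial, 5 of 6 mural, 5 of 12 skin and 6 of 25 matrix genes. Another member was stm, which encodes an otolith matrix protein, with 3.22, 419, 228, 417, 275, 1.75 and 986 CPM. A second cluster of 153 genes had mean z-scores of -1.14 in tumor 7, -0.61 in tumor 8, 0.81 in tumor 12 and 0.80 in tumor 14, and held 24 muscle and 16 matrix list genes. The next cluster, of 117 genes, was highest in tumor 13 (1.24) and lowest in tumor 8 (-0.90), with GFAP, SIX6, cldnk and 9 cholesterol genes. The clusters are a description of these libraries, since the genes were chosen for their range.

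**Figure D5:**
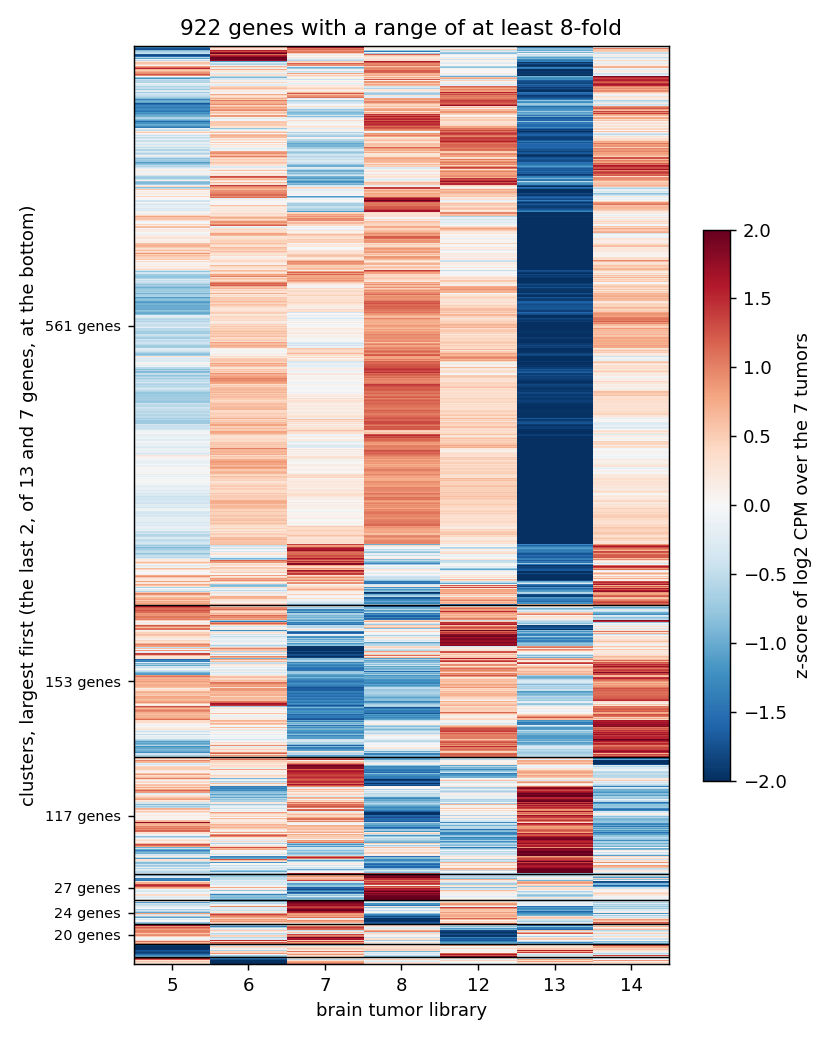
Heat map of the z-score of log2 CPM over the 7 tumors for the 922 genes with a mean of at least 10 CPM and a range of at least 8-fold, in 8 clusters separated by black lines. The cluster of 561 genes is blue in tumor 13 (mean z-score -1.81), the cluster of 153 genes is blue in tumor 7 (-1.14) and the cluster of 117 genes is red in tumor 13 (1.24).

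Each tumor also had genes in which it alone stood away. Among genes with a proper symbol, tumor 5 was above the next tumor most in gch2, with 49.4 CPM against 2.37 to 13.5 CPM. gch2 encodes a GTP cyclohydrolase of pigment cells. Tumor 6 stood out in ACKR4, a scavenging chemokine receptor (109 CPM against 2.59 to 13.8), and rrbp1b, a ribosome binding protein (199 against 6.10 to 32.3). Tumor 7 had SNCG, gamma-synuclein, at 567 CPM against 35.5 to 87.8 CPM. Tumor 14 stood out among the tumors in COCH, cochlin of the inner ear, at 174 CPM against 0.146 to 12.6 CPM. In normal brain COCH varied widely, at 87.4 ± 152 CPM (SD, n = 8). Tumor 14 was also highest in scn4ab, a sodium channel of muscle, at 3861 CPM, with 1056 CPM in tumor 12 and 8.91 to 237 CPM elsewhere. Tumor 13 had KIF26A, a kinesin, at 152 CPM against 7.63 to 14.9 CPM, and CPT1B, a carnitine transferase of fatty acid oxidation, at 168 CPM against 1.08 to 17.9 CPM. In the other direction RHBDF1 was at 2.37 CPM in tumor 8 against 56.4 to 347 CPM, DDIT4, a stress-induced inhibitor of mTOR, at 2.50 CPM in tumor 7 against 21.1 to 55.1 CPM, and ostn, a secreted peptide of muscle and bone, at 0.0730 CPM in tumor 13 against 22.6 to 81.1 CPM.

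Single anchor genes were also compared with each other. Of their 10 pairs 0 passed after Benjamini-Hochberg adjustment over the 10, with a smallest adjusted p of 0.585. SOX10 and COL1A2 had Pearson's r = 0.71 (exact permutation p = 0.0585) and Spearman's rho = 0.64 (exact permutation p = 0.139), and r = 0.15 without tumors 5 and 8, the 2 farthest from the SOX10 median. Leaving them out also narrows the range of SOX10, and with 1 tumor left out at a time r ran from 0.44 to 0.87. SNAP25 and SOX10 had r = -0.52 (exact permutation p = 0.21) and rho = -0.75 (exact permutation p = 0.0663), with r = -0.93 without tumors 5 and 13. Since tumor 13 lies far from the rest in SNAP25, the value over the other 6 was computed as well: r = -0.89, with an unadjusted exact permutation p of 0.0389, which was 0.389 after adjustment. The remaining 8 pairs had r between -0.50 and 0.45. Of these, mki67 and c1qc had r = -0.50, and -0.99 without tumors 13 and 14, the 2 farthest from the mki67 median. With 1 tumor left out at a time the r of this pair ran from -0.84 to -0.25. The value of -0.84, without tumor 14, had an unadjusted exact permutation p of 0.0111, which was 0.111 after adjustment. With SOX10 as the anchor 0 of 19900 genes (0%) passed in either direction by edgeR, with 887 at an unadjusted p below 0.05, and DESeq2 called 7 rising and 2 falling genes.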

How the data were processed

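Tissue was dissected and polyA+ RNA was sequenced as 50-cycle single reads, per the labels' protocols. The authors deposited raw read counts per gene and FPKM, counts scaled by gene length and library total, per the file headers, and the submitters' processing notes name Novoalign 2.08.01 and DESeq2 without their roles. Their deposited log2 fold changes and p-values of tumor against normal brain were not used. The genome build, annotation and counting tool were not stated.

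Counts of the 7 tumors were scaled together by TMM (edgeR 4.0.16, R 4.3.3), and normal brain separately. For the distances alone, all 15 libraries were scaled together by TMM and filtered by filterByExpr with tumor and normal brain as groups. Every gene passing filterByExpr was fitted on the log2 CPM of 1 anchor gene by edgeR's quasi-likelihood test with Benjamini-Hochberg adjustment at 0.05, with DESeq2 1.42.0 as an alternative. Ranges and SDs of log2 CPM used a prior count of 2. Fits were tested on simulated data. No tumors were grouped.

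Named were NRAS, the anchors, the most abundant genes by FPKM, those of largest and smallest SD, the extremes of each list, the genes of smallest p for each anchor and those farthest above or below in 1 tumor. Except in the FPKM and list parts, genes with a clone or predicted name or without a symbol were left out of these rankings. Members and lists were chosen with earlier results of these data known. The HOX, forebrain and midbrain lists, and c1qb, GAD2, NEUROD1, VAX2, HOXB3, HOXB7, TFAP2B, FOXD3, DDIT4 and further list members, were chosen after their values were seen. List means are shown in a heat map. Some items are not reported here. Symbols were matched to the deposited Ensembl IDs from a separate gene name reference, which names many duplicated genes by the human symbol. Genes with several copies are given with their Ensembl ID where copies differ.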

Additional observations from a re-analysis of the deposited data

Results flagged for a closer look

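Of 154 measures tested (the named genes on log2(CPM + 0.1), the list means, the library measures and the distances), 25 had 1 library farther from the rest than Dixon's 95% limit. Chance gives about 1 in 20 for measures not picked for their values, a rate that cannot be set against these 25, since SNCG, KIF26A, UGT1A1, ostn, nkl.4, ccl34b.8, RHBDF1 and DDIT4 were named because 1 tumor stood apart in them. Tumor 13 accounted for 15 of the 25, tumor 7 for 5, tumor 8 for 3, and tumors 5 and 6 for 1 each.

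Tumor 13 lay apart on the first principal component (163), in its median correlation with the other tumors (0.868), in the number of genes with a count (20458) and in its distance from the other tumors (1.41). Its mean log2 CPM was low for the glutamatergic (-0.19) and GABAergic (-0.60) synapse lists, for neuropeptides (-1.12) and for oligodendrocyte precursor genes (4.05). Single genes low there were GRIA3 (0.218 CPM), STMN2 (0.583 CPM), bcan (13.2 CPM), epd (15 CPM) and ostn (0.0730 CPM). KIF26A (152 CPM) and UGT1A1 (78.1 CPM) were high there.

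Tumor 7 was high in SNCG (567 CPM) and in the mean of the liver list (0.81), and low in DDIT4 (2.50 CPM), chaf1a (50.4 CPM) and the immediate early and heat shock list (3.63). Tumor 8 was high in nkl.4 (62.4 CPM) and ccl34b.8 (67.9 CPM) and low in RHBDF1 (2.37 CPM). Tumor 6 was high in the photoreceptor list (1.31), and tumor 5 in SOX6 (379 CPM).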

How the results depend on the processing

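Of the results other than those leaving out 1 tumor, 112 were classed as the same, 19 as moved and 2 as reversed. The cause was not tested. Results classed as the same did not all keep their size. With library size alone r went from -0.52 to -0.25 for SNAP25 and SOX10, and from 0.19 to 0.06 for SOX10 and mki67. Genes falling with SNAP25 numbered 150 with upper-quartile factors and 108 with library size alone, and genes rising with it 787 at a mean of at least 5 CPM. DESeq2 called 2687 rising and 940 falling with SNAP25, 7 and 2 with SOX10, 16 and 6 with mki67, 14 and 22 with c1qc, and 175 and 7 with COL1A2, where no filter gave 1 falling gene. SOX10 and c1qc had r = -0.15, which was 0.03 with library size alone or FPKM. Genes within 1.5-fold numbered 1546 with library size alone, 1559 by FPKM and 378 at a mean of at least 50 CPM. Genes ranging 8-fold numbered 1497 at a mean of at least 5 CPM and 207 at 50 CPM.

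Leaving out 1 tumor in turn, genes rising with SNAP25 numbered 13 to 1473, genes falling 0 to 427 and genes rising with COL1A2 0 to 8. The 8-fold genes numbered 494 to 919 and the 1.5-fold genes 1003 to 2457, a smaller number of libraries giving narrower ranges. The first component held 30.7 to 53.9%, and the distance difference was 0.324 to 0.474. Pearson's r ran from -0.79 to 0.13 for SNAP25 and mki67, -0.09 to 0.68 for SNAP25 and c1qc, -0.57 to 0.07 for SNAP25 and COL1A2, -0.43 to 0.51 for SOX10 and mki67, -0.59 to 0.72 for SOX10 and c1qc, and -0.15 to 0.66 for c1qc and COL1A2.

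With library size alone the median of all genes moved by -0.26 in log2 for tumor 13, -0.12 for tumor 7, 0.12 for tumor 8 and 0.11 for tumor 14, so small differences between tumors depend on the scaling. No paired analysis was possible because no groups of tumors were compared and tumor and normal libraries share no replicate number.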

Other observations

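Vitellogenin genes, which encode egg yolk precursors made by the liver of female fish, were found in tumor 7. vtg1 stood at 54.4 CPM, vtg2 at 44.8 CPM, vtg4 at 43.8 CPM and vtg7 at 29.8 CPM in that tumor, and each at 0 to 0.487 CPM in the other 6. Of 44 liver list genes 25 reached 1 CPM in tumor 7 and 3 to 11 in the others, while the summed level of the list was 300 CPM there and 269 to 19400 CPM in the normal brains.

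The 2 genes named RRM2, the small subunit of ribonucleotide reductase, which makes the building blocks of DNA, were low in different tumors. RRM2 (ENSDARG00000020711) had 50.2, 21.2, 0.675, 0.0570, 24.5, 65.5 and 0.0430 CPM, and RRM2 (ENSDARG00000078069) had 0.189, 21.2, 36.8, 45.2, 21.9, 52.1 and 52.7 CPM. The first was near 0 in tumors 7, 8 and 14 and the second in tumor 5, while both were high in tumor 13 and near equal in tumors 6 and 12. Whether reads of 1 of them count toward the other was not tested. Their sum was 50.4, 42.5, 37.5, 45.3, 46.4, 118 and 52.7 CPM. Among 1056 symbols with 2 genes, 90 had both ranging at least 8-fold, and in 1 of these, RRM2, the sum ranged at most 4-fold.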
